A study of Mus musculus with 8 samples.

Results

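The E2F and retinoblastoma family brings together the E2F transcription factors and the pocket proteins that bind them. Its 10 members here were the activators *E2f1*, *E2f2* and *E2f3*, the repressors *E2f4* and *E2f5*, the atypical *E2f7* and *E2f8*, and the pocket protein genes *Rb1*, *Rbl1* and *Rbl2*. They were chosen by gene symbol among the 19751 genes that the array's probes could be matched to by RefSeq accession. *E2f6* was not counted among them and is given as a reference, since its protein is a subunit of PCGF6-PRC1. The 10 genes had 13 probes, all of them well above background on all 8 arrays, so that no member was lost to the filter on dim probes.

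E2F proteins, most of them as partners of a DP protein, bind the promoters of genes needed for entry into S phase and for DNA synthesis. Pocket proteins hold E2F proteins in a repressive state until they are phosphorylated by cyclin-dependent kinases, and mouse ESCs, which have a short G1 phase, are known for keeping RB largely phosphorylated. The atypical E2F proteins bind DNA without a DP partner and repress E2F target genes late in the cycle.

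Expression was measured in VV3 ESCs, a male mouse ESC line with a *Vasa*::Venus transgene that reports on *Ddx4* (*Vasa*), grown in serum and LIF on STO feeder cells treated with mitomycin C. The cells received siRNA against *L3mbtl2* (4 samples, *L3mbtl2*-KD ESCs) or the non-silencing AllStars siRNA (4 samples, control ESCs) by the same lipofection, in order to learn which germ cell-related genes depend on PCGF6-PRC1. The methods name a single siRNA design for *L3mbtl2* and describe the *L3mbtl2*-KD cells as *Vasa*-positive cells purified by FACS. A sort of the control cells is neither stated nor denied for the arrays, so that knockdown and sort cannot be told apart. Each RNA was labelled with Cy3 and placed on a separate one-colour Agilent array, and the methods call the samples of a group biological replicates.

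All levels are log2 intensities minus the 75th percentile of the array, so that a level of 0 is the intensity at that percentile. This intensity was 791 to 1038 in *L3mbtl2*-KD ESCs and 854 to 1024 in control ESCs, and 59.5 to 63.9% and 62.0 to 66.6% of spots were well above background. The share of such spots was lower in *L3mbtl2*-KD ESCs in every same-number pair. The number of arrays limits the precision. The siRNA target *L3mbtl2* (NM_145993) was at 0.27, -0.18, -0.21 and -0.31 in control replicates 1 to 4 and at -1.45, -1.26, -1.58 and -1.73 in *L3mbtl2*-KD replicates 1 to 4. The groups did not overlap, with a difference of -1.40 on the log2 scale (standard error 0.15 and adjusted p = 0.000944, both from limma). *Ddx4*, the gene of the sorted reporter, was higher by 2.83 (log2) in *L3mbtl2*-KD ESCs. All 8 markers of ESCs on the list were well above background on every array, and their summed level, relative to the 75th percentile, was 250 to 279 in control ESCs and 241 to 287 in *L3mbtl2*-KD ESCs, the largest part of it from the *Dppa5a* probe. Without *Dppa5a* the sum was lower in all 4 same-number pairs, at 126, 119, 119 and 103 in control replicates 1 to 4 and 98.5, 103, 100 and 88.3 in *L3mbtl2*-KD replicates 1 to 4.

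Of the 10 family members, 2 were down-regulated in *L3mbtl2*-KD ESCs at an adjusted p under 0.05 with a change of any size, and these were *E2f2* and *E2f7*. In all, 11.7% of the 13652 genes tested were lower by this rule. At the same threshold 0 of 10 members were up-regulated in limma, against 10.3% of all genes. At an unadjusted p under 0.05 limma gave 2 members higher and 4 lower (18.2% and 20.5% of all genes), as did the one-way test named in the legends when left unadjusted (18.1% and 19.4%). No member changed more than 2-fold, with or without an adjusted p, while such a change with an adjusted p under 0.05 was found for 2.49% of all genes in the up direction and 3.21% in the down direction, a balance that turned with normexp background correction and with quantile normalization. In either direction 20% of the members and 22% of all genes passed the adjusted threshold, so that the share of changed members was close to that of all genes.

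Replicate numbers paired the samples, and with the number as a block in limma more members passed. *E2f3*, *E2f4* and *Rb1* were then higher (3 of 10, against 23.9% of all genes) and *E2f2*, *E2f7* and *E2f8* lower (3 of 10, against 26% of all genes). In either direction, 60% of the members and 49.6% of all genes passed with the block, and 0 of 10 members did so with more than a 2-fold change (2.62% of all genes higher, 3.44% lower). The groups of single arrays did not overlap for *E2f4*, which was higher (1 of 10, against 12.7% of all genes), nor for *E2f2* and *E2f7*, which were lower (2 of 10, against 13.8%). By their brightest probes, 4 members were higher and 4 were lower in *L3mbtl2*-KD ESCs in all 4 same-number pairs, against 31.1% and 32.7% of all genes, and among the higher ones *Rbl1* has a second probe that was lower in all 4 pairs. The median log2 fold change of the members, by the same probes, was 0.070, with 6 above and 4 below 0, and that of all genes was -0.011.

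**Figure D1:**
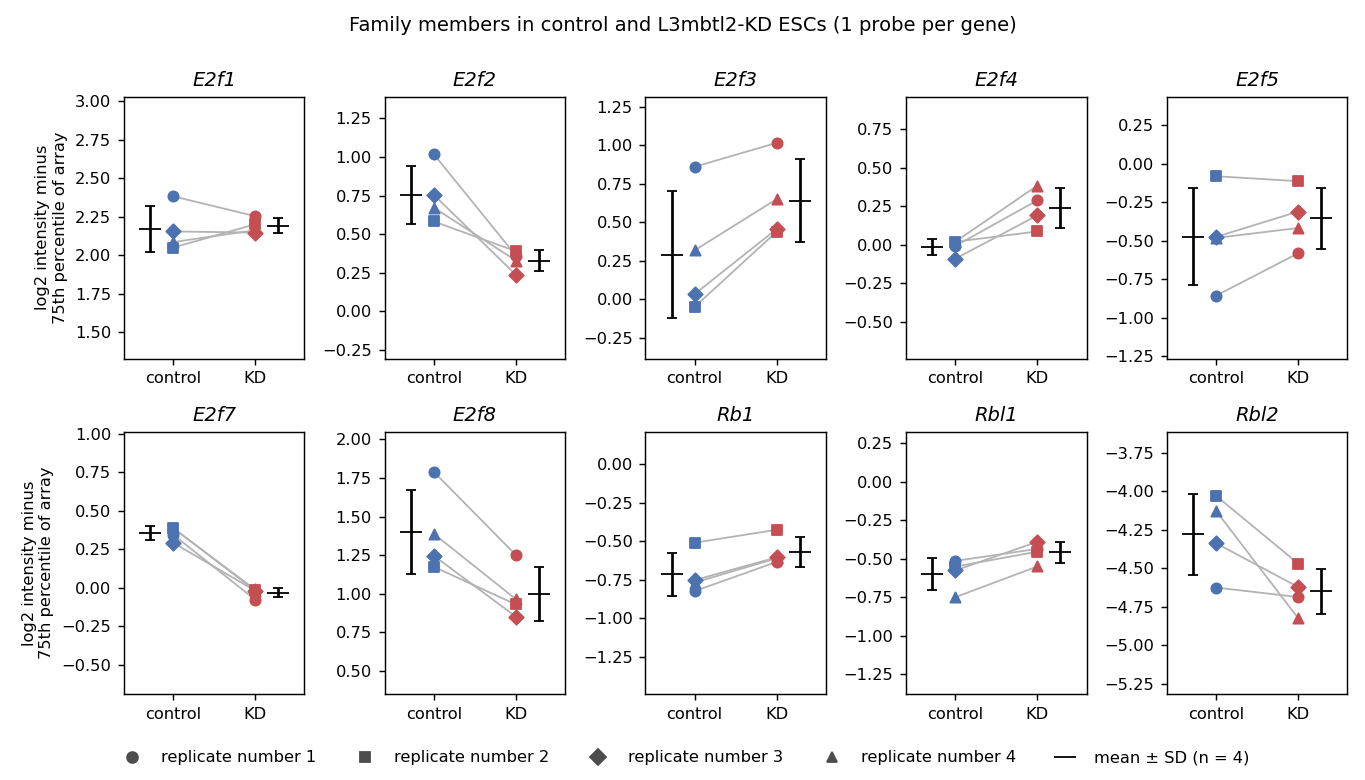
Level of each family member (log2 intensity minus the 75th percentile of the array, 1 probe per gene) in the 4 control and 4 *L3mbtl2*-KD samples, with lines joining samples of the same replicate number and bars for mean ± SD (n = 4). All panels span the same log2 range, and *E2f2*, *E2f4* and *E2f7* are the genes whose groups do not overlap.

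Among the activators, *E2f2* fell. Its probe (NM_177733) was at 1.02, 0.58, 0.75 and 0.67 in control replicates 1 to 4, and at 0.36, 0.39, 0.23 and 0.33 in *L3mbtl2*-KD replicates 1 to 4. Every *L3mbtl2*-KD array lay below every control array, and the control samples were spread more widely, with replicate 1 the highest. Its log2 fold change was -0.43 (95% confidence interval -0.67 to -0.19, standard error 0.11, adjusted p = 0.0264 in limma), which left 74.3% of the control intensity. Over the 8 arrays, the two-sided exact permutation test gave p = 0.0286, the smallest p that 4 against 4 samples allow. Both groups were present on each of the 2 slides, and the difference was -0.43 within either slide, where with fewer arrays it no longer passed (adjusted p = 0.415 and 0.0674). With the slide as a block the adjusted p was 0.0217. It was above 0.05 without the filter on dim probes (0.0680) and also without *L3mbtl2*-KD replicate 1 (0.0514), 3 (0.0748) or 4 (0.0624) or control replicate 3 (0.0691).

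The *E2f2* start site most upstream in RefSeq has a window of promoter sequence with an E2F site near the start of transcription. It is printed here because *E2f2* is a member that fell and because E2F proteins are known to act on promoters of their own family. The window runs from 250 bases before to 50 bases after the start on the + strand (chr4:136172024-136172323, RefSeq, GRCm38.p6), and capitals mark TTTGGCGC, which begins 39 bases after the start.
E2f2 promoter: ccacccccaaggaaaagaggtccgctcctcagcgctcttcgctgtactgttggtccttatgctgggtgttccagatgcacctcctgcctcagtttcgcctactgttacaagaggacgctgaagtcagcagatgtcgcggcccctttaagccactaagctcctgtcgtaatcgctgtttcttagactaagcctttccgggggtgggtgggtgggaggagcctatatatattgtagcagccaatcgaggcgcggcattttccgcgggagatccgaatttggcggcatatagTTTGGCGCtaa

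*E2f3*, another activator, passed the test on its brighter probe only when samples were paired. Its brighter probe (NM_010093) was at 0.86, -0.050, 0.033 and 0.32 in control replicates 1 to 4 and at 1.01, 0.44, 0.46 and 0.65 in *L3mbtl2*-KD replicates 1 to 4. The groups overlapped, since control replicate 1 stood above 3 of the *L3mbtl2*-KD samples, but each *L3mbtl2*-KD sample was above the control sample of its number, by 0.16, 0.49, 0.42 and 0.33. On average the difference was 0.35 (log2, standard error 0.22), with an adjusted p of 0.297 in limma and 0.0156 with the replicate block, and it ran from 0.22 to 0.54 with 1 sample left out, the largest without control replicate 1. The dimmer *E2f3* probe moved the same way, at -2.22, -2.55, -2.73 and -2.40 in control and -1.81, -2.05, -2.28 and -1.92 in *L3mbtl2*-KD replicates 1 to 4. Its log2 fold change of 0.46 (standard error 0.14) had an adjusted p of 0.0549 without a block, 0.0396 with the slide as a block and 0.00239 with the replicate block. Within the slides, the brighter probe gave 0.32 and 0.38 and the dimmer probe 0.45 and 0.46.

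*E2f3* has a pair of start sites in RefSeq, each with a window on the - strand of chromosome 13. The upstream window (chr13:29986014-29986313) holds both TTTGAA, the CHR element of late cell cycle promoters, 23 bases before the start, and GCGGGAAA, the reverse complement of TTTCCCGC, 11 bases before the start. The downstream window (chr13:29984342-29984641) holds the E-box CACGTG, known as a binding motif of MAX, 24 bases before the start. Both are shown since no other member had all of these motifs, and capitals mark the matches.
E2f3 upstream promoter: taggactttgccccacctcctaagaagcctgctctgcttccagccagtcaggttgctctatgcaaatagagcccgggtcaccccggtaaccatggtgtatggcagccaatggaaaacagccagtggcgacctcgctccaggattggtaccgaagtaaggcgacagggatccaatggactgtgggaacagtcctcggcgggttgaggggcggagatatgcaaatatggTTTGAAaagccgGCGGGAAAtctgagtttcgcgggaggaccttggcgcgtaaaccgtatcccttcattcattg
E2f3 downstream promoter: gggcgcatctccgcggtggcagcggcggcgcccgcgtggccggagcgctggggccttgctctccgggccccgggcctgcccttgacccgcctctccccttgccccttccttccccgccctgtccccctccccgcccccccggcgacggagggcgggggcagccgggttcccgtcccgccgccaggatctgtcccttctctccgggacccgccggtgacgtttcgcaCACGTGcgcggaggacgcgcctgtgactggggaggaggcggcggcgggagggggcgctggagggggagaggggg

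*E2f1*, the activator best known for driving S phase entry, did not pass the test under any setting tried. Its probe (NM_007891) was at 2.38, 2.05, 2.15 and 2.08 in control replicates 1 to 4 and at 2.25, 2.20, 2.15 and 2.16 in *L3mbtl2*-KD replicates 1 to 4. All *L3mbtl2*-KD values lay within the range of the control values. The groups differed by 0.023 (log2, standard error 0.093, adjusted p = 0.892), with a 95% confidence interval of -0.19 to 0.24, and its sign turned with quantile normalization (-0.0088).

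The typical repressors pair with pocket proteins at the promoters of resting cells. *E2f4* (NM_148952) was at -0.0083, 0.019, -0.091 and 0.019 in control replicates 1 to 4 and at 0.29, 0.085, 0.19 and 0.38 in *L3mbtl2*-KD replicates 1 to 4. Every *L3mbtl2*-KD value was above every control value, with replicate 2 the closest to them. This difference of 0.25 (log2, standard error 0.088) did not pass without a block (adjusted p = 0.0811 in limma) but passed with the replicate block (0.0317), and the two-sided exact permutation test gave p = 0.0286. On the first slide alone it was 0.18, and on the second alone 0.32. *E2f5* (NM_007892) ranged from -0.86 to -0.081 in control ESCs and from -0.58 to -0.11 in *L3mbtl2*-KD ESCs. Its groups overlapped almost fully, and the log2 fold change was 0.12 (95% confidence interval -0.27 to 0.50, adjusted p = 0.675, 0.199 with the replicate block). Without control replicate 1, its value turned to -0.0096.

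Of the atypical repressors, *E2f7* passed in limma, and *E2f8* did so with the replicate block but not without a block. *E2f7* (NM_178609) was at 0.34, 0.39, 0.29 and 0.39 in control replicates 1 to 4 and at -0.077, -0.012, -0.019 and -0.018 in *L3mbtl2*-KD replicates 1 to 4. The samples of each group lay close together and the groups were well apart. *E2f7* fell by 0.38 (log2, standard error 0.070, 95% confidence interval -0.54 to -0.23, adjusted p = 0.00791 in limma, exact permutation p = 0.0286), and 76.6% of the control intensity was left. It was -0.41 and -0.36 within the slides (adjusted p = 0.283 and 0.0857, with fewer arrays). The dimmer *E2f7* probe did not pass, with levels of -2.94 to -2.35 in control ESCs and -3.07 to -2.46 in *L3mbtl2*-KD ESCs. Its groups overlapped, and its log2 fold change was -0.14 (standard error 0.19, 95% confidence interval -0.58 to 0.29, adjusted p = 0.644), although all 4 same-number pairs were lower. The fall of *E2f7* therefore rests on 1 of its probes.

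The *E2f7* promoter is printed as that of the other member that fell. Its window on the + strand (chr10:110745189-110745488, RefSeq, GRCm38.p6) holds GCGGGAAA, in capitals, which begins 198 bases before the start.
E2f7 promoter: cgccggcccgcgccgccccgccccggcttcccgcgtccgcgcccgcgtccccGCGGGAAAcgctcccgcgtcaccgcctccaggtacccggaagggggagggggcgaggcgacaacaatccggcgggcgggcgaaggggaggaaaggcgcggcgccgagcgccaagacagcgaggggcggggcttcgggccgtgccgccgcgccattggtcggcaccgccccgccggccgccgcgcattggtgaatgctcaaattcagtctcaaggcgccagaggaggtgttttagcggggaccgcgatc

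*E2f8* (NM_001013368), which acts together with E2F7, was at 1.79, 1.17, 1.25 and 1.39 in control replicates 1 to 4 and at 1.25, 0.93, 0.85 and 0.96 in *L3mbtl2*-KD replicates 1 to 4. *L3mbtl2*-KD replicate 1 reached the lower control samples, so that the groups overlapped, whereas all 4 pairs were lower, with differences of -0.54, -0.24, -0.40 and -0.42. Their mean of -0.40 (log2, standard error 0.15) had an adjusted p of 0.102 in limma and of 0.00802 with the replicate block. Within the slides it was -0.39 and -0.41.

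**Figure D2:**
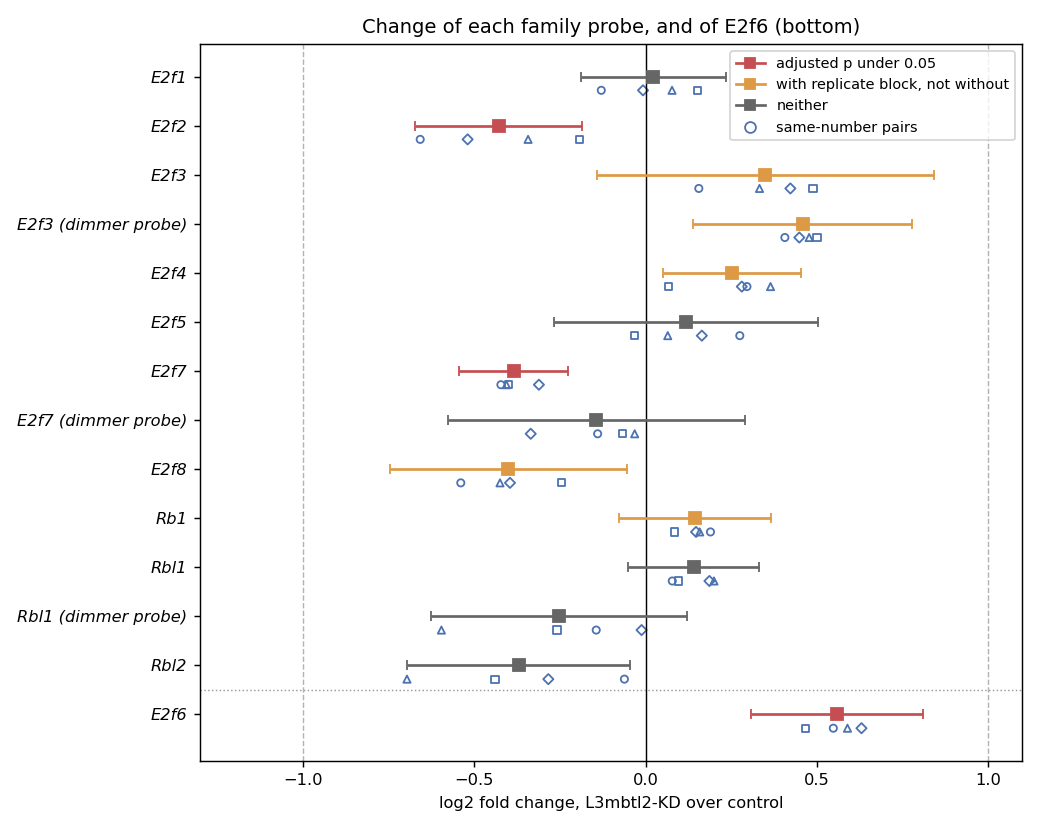
Log2 fold change (*L3mbtl2*-KD over control) of all 13 family probes and of *E2f6*, with 95% confidence intervals from limma and, below each, the differences within the 4 same-number pairs as open symbols. Squares are red at an adjusted p under 0.05, orange where this holds with the replicate block but not without a block, and grey otherwise, and dashed lines mark 2-fold changes, which no probe reached.

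The pocket proteins restrain the E2F proteins. *Rb1* (NM_009029, the mean of 10 spots) was at -0.82, -0.51, -0.75 and -0.77 in control replicates 1 to 4 and at -0.64, -0.43, -0.61 and -0.61 in *L3mbtl2*-KD replicates 1 to 4. Replicate 2 was the highest sample of both groups, and the groups overlapped through it. At a difference of 0.14 (log2, standard error 0.097, adjusted p = 0.338), the gene passed only with the replicate block (0.0485). The 2 probes of *Rbl1* disagreed in sign and neither passed. The brighter one (NM_011249) ranged from -0.75 to -0.51 in control ESCs and from -0.55 to -0.39 in *L3mbtl2*-KD ESCs, which is higher by 0.14 (log2, standard error 0.084, adjusted p = 0.283, 0.0634 with the replicate block). The dimmer one, matched to another transcript (NM_001139516), ranged from -2.63 to -2.12 in control ESCs and from -3.01 to -2.37 in *L3mbtl2*-KD ESCs, with a difference of -0.25 (log2, standard error 0.16, adjusted p = 0.321, 0.113 with the replicate block). No direction is given for *Rbl1* for this reason.

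*Rbl2* (NM_011250) was at -4.62, -4.03, -4.34 and -4.13 in control replicates 1 to 4 and at -4.69, -4.47, -4.62 and -4.82 in *L3mbtl2*-KD replicates 1 to 4. Each of these levels lay below the median probe of its array, which was at -3.77 to -3.47. Control replicate 1 was as low as the *L3mbtl2*-KD samples, and the groups overlapped through it. A difference of -0.37 (log2, standard error 0.14) did not pass in limma (adjusted p = 0.107) or with the replicate block (0.0504), and it was -0.25 and -0.49 within the slides. Without control replicate 1 it was -0.49 with an adjusted p of 0.0309. Its size changed with the processing, to -0.083 after normexp and -0.20 after quantile normalization.

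*E2f6* (NM_033270), whose protein lacks the activation domain and sits in the same complex as L3MBTL2, rose by 0.56 (standard error 0.11, adjusted p = 0.0110 in limma). Its level was 1.41, 1.28, 1.32 and 1.56 in control replicates 1 to 4 and 1.95, 1.74, 1.95 and 2.15 in *L3mbtl2*-KD replicates 1 to 4. The groups did not overlap, and the change was 0.51 and 0.61 within the slides, where with fewer arrays it did not pass (adjusted p = 0.269 and 0.0675). Whether this change differed from that of *E2f4* or of other members was not tested.

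None of the other pathway genes passed with more than a 2-fold change. The DP partner genes *Tfdp1* and *Tfdp2* had log2 fold changes of -0.34 and -0.34, and 0 of 2 passed in limma (0 also at an unadjusted p under 0.05 in limma and in the one-way test), whereas both were lower with the replicate block (adjusted p = 0.0123 and 0.0110). The second *Tfdp2* probe gave -0.12 and did not pass in either fit. The MuvB core binds pocket proteins and, at late cell cycle promoters, B-MYB and FOXM1 in their place. Of 7 genes of the MuvB core with B-MYB and FOXM1, 1 fell, the B-MYB gene *Mybl2* (-0.44, standard error 0.085, adjusted p = 0.0102). A second, dimmer *Mybl2* probe gave -0.27 (standard error 0.15, adjusted p = 0.239, 0.0237 with the replicate block), and its groups overlapped. *Mybl2* is itself a known E2F target, and the levels of its brighter probe in control replicates 1 to 4 were 6.10, 6.15, 6.19 and 6.01, against 5.54, 5.70, 5.77 and 5.69 in *L3mbtl2*-KD replicates 1 to 4. The median log2 fold change of these 7 genes was 0.11, and with the replicate block 1 gene was higher and 2 lower.

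Upstream of the pocket proteins, 6 of the 8 genes for G1 cyclins and their kinases could be tested, with *Ccne2* and *Cdk6* too dim. *Cdk2*, the partner of cyclin E, fell (log2 fold change -0.37, standard error 0.087, adjusted p = 0.0211), the median was -0.18 (-0.26 to -0.097 with 1 sample left out), and with the replicate block 3 of the 6 were lower. No gene of this list was lower without control replicate 3, without control replicate 4 or without the filter on dim probes (0 each). Of the 7 genes for CDK inhibitors, *Cdkn1b*, which encodes an inhibitor of cyclin E-CDK2, fell (-0.45, standard error 0.091, adjusted p = 0.0122). Its levels were 1.97, 2.12, 1.91 and 2.04 in control replicates 1 to 4 and 1.52, 1.72, 1.58 and 1.44 in *L3mbtl2*-KD replicates 1 to 4, with no overlap. The median of the 7 was -0.10, its sign turned without *L3mbtl2*-KD replicate 1 (0.12) or control replicate 4 (0.090), and with the replicate block 2 were higher and 3 lower.

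Downstream, 3 of the 32 E2F target genes of the G1/S transition changed. The origin recognition gene *Orc1* rose (0.47, standard error 0.085, adjusted p = 0.00782), while the helicase gene *Mcm3* (-0.38, adjusted p = 0.0351) and the thymidine kinase gene *Tk1* (-0.40, adjusted p = 0.0314) fell. The 32 genes ranged from -0.40 to 0.47 with a median of -0.035 (-0.061 to 0.055 with 1 sample left out), and with the replicate block 5 were higher and 7 lower. This count of 2 lower genes was 0 without the filter on dim probes, and it was 0 or 1 when any sample but control replicate 2 was left out. Of 18 genes of the G2/M phase, targets of the DREAM complex or of B-MYB and FOXM1, *Cdc20* (0.40, adjusted p = 0.0183) and *Kif20a* (0.35, adjusted p = 0.0164) rose, and 0 fell in limma (2 at an unadjusted p under 0.05 in limma and 2 in the one-way test). The median of the 18 was 0.086 (0.013 to 0.10 with 1 sample left out), and with the replicate block 5 were higher and 4 lower, with *Cdk1* in both counts because 2 of its 3 probes passed in opposite directions (0.15, adjusted p = 0.0396, and -0.35, adjusted p = 0.0302). Without control replicate 3, 0 genes of this list were higher, and without *L3mbtl2*-KD replicate 4, 1 was. By the same rules, 10.3% of all genes were higher and 11.7% lower, or 23.9% and 26% with the replicate block.

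**Figure D3:**
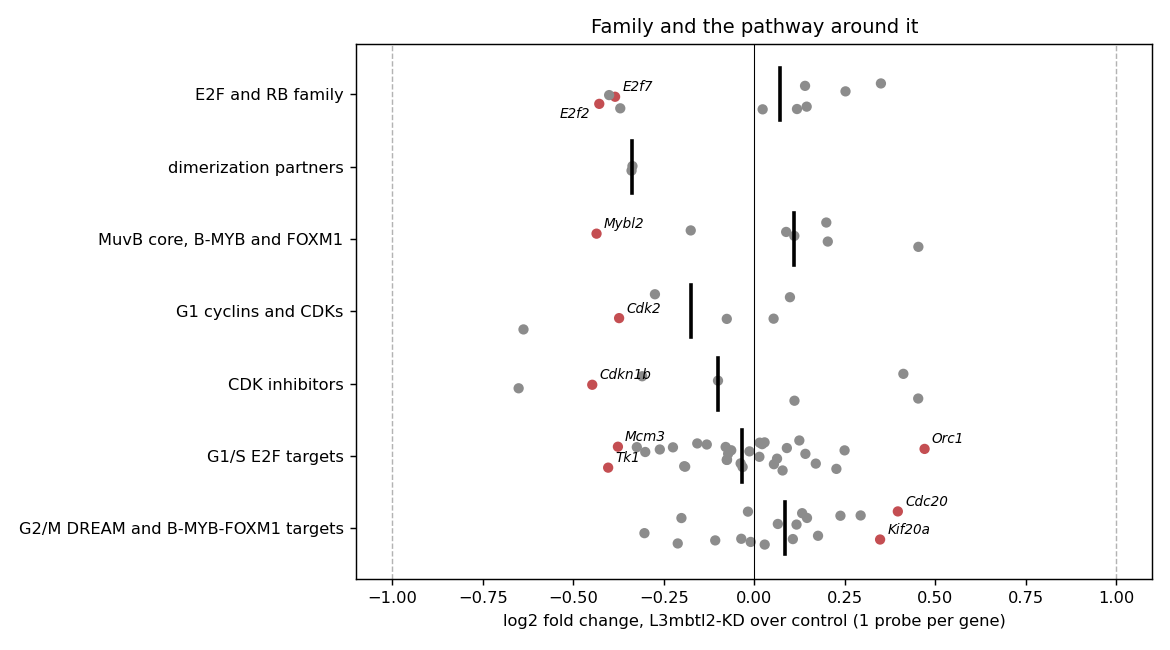
Log2 fold change (*L3mbtl2*-KD over control, 1 probe per gene) of the 10 family members and of the genes of each pathway list, with a black bar at the median of each list. Red points have an adjusted p under 0.05 and are named, and all points lie between the dashed lines that mark 2-fold changes.

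Markers of other cells moved with the groups. Of 14 feeder fibroblast genes, 9 were well above background on all 8 arrays, and of these 6 were lower and 1, *Loxl1*, was higher in *L3mbtl2*-KD ESCs at an adjusted p under 0.05. *Col3a1*, *Dcn* and *S100a4* were that bright in every sample of the control group alone and are not counted, and *Lum* and *Postn* in no sample. The summed level of all 14, relative to the 75th percentile of the array, was 3.42, 6.03, 4.86 and 7.21 in control replicates 1 to 4 and 1.93, 2.02, 1.89 and 1.87 in *L3mbtl2*-KD replicates 1 to 4. On each *L3mbtl2*-KD array, the largest part of this sum came from *Loxl1*, the marker that rose. Control replicate 1 was the lowest of the control samples, and *Col3a1* and *Dcn* did not stand well above background on any *L3mbtl2*-KD array. Of 7 primitive endoderm genes, 4 were well above background on all 8 arrays, of which *Gata4* and *Pdgfra* were lower, and the summed level of the 7 was 1.85, 2.20, 1.64 and 2.05 in control and 1.09, 1.91, 1.44 and 1.17 in *L3mbtl2*-KD replicates 1 to 4, the largest part of it from *Gata6* on each array. *Dab2*, *Foxa2* and *Sox17* were that bright in every control sample but not in every *L3mbtl2*-KD sample (*Foxa2* in none) and are not counted. Of 8 two-cell-like genes, 7 had a probe (not *Zscan4d*), and 6 of these were higher, *Sp110* only through its 2 dimmer probes. *Zfp352* was not higher (-0.15, adjusted p = 0.389 in limma). The summed level of the 7 was 83.3 to 125 in control ESCs and 102 to 153 in *L3mbtl2*-KD ESCs, most of it from the brightest *Sp110* probe. Of the 8 ESC genes, 6 had a log2 fold change below 0, with a median of -0.20. *Klf4* passed (-0.70, adjusted p = 0.0274), while the largest fall, that of *Nanog* (-1.32), did not (adjusted p = 0.0962). *Nanog* had the dimmest probe of the list, and its same-number pairs differed by -1.68, -2.54, -1.26 and 0.23. With the replicate block in limma, *Dppa5a* was higher (adjusted p = 0.0316) and *Klf4* and *Tdgf1* were lower (0.00578 and 0.00801). *Nanog* did not pass with the block either (0.0719). Among the endoderm genes bright on all 8 arrays, *Sox7* was also lower with the block (adjusted p = 0.0132). Fewer cells of a type and less RNA per cell cannot be told apart in such samples, and the part of these markers in the changes of *E2f2*, *E2f7* and the other genes above was not tested.

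**Figure D4:**
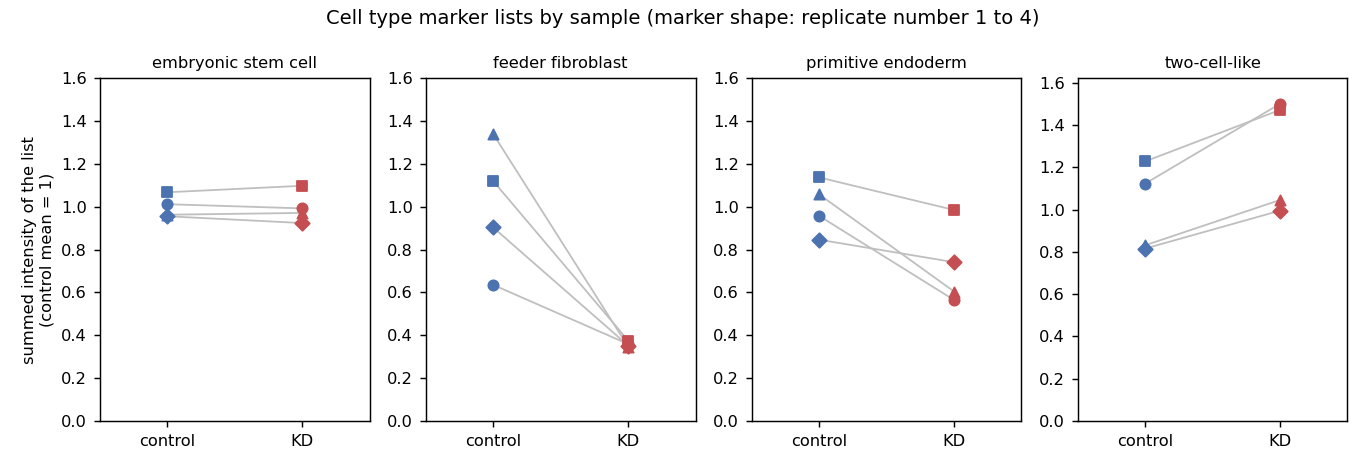
Summed intensity of each marker list by sample, as a ratio to the mean of the control samples, with lines joining samples of the same replicate number. Feeder fibroblast sums are lower in all *L3mbtl2*-KD samples than in any control sample, and sums of ESC markers, the largest part of them from *Dppa5a*, overlap between the groups.

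Over all genes tested, *Acap1*, *Ensa* and *Epn2* followed *E2f2* most closely across the 8 arrays (Pearson r = 0.994, 0.984 and 0.981), and *Tent5a*, *Oscar* and *Marcks* followed *E2f7* (0.997, 0.991 and 0.990). A part of each correlation is the difference between the groups, and these genes were picked for their likeness, so the values are a description only. *Tent5a* and *Marcks* themselves changed more than 2-fold, with log2 fold changes of -1.27 and -1.34.

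RefSeq promoter windows of 300 bases were found for 7 of the 10 members, not for *E2f4*, *E2f5* and *Rb1*. A window lies at a start site in RefSeq, which need not be the main start of the gene. A gene without a match, such as *E2f1*, may hold one at a start that was not searched. The E2F site, searched as TTTCCCGC or TTTGGCGC on both strands, occurred in a window of 3 of the 7, *E2f2*, *E2f3* and *E2f7*, and in 1.80% of the 27025 genes with windows. The CHR element TTTGAA occurred for *E2f2* (at another start site than the one shown), *E2f3*, *E2f8* and *Rbl2*, and in 20.2% of genes. The E-box CACGTG occurred for *E2f3* alone among the 7, and in 8.09% of genes. The members with an E2F site include both that fell in limma and *E2f3*, which was higher with the replicate block. Other forms of the E2F site were not searched, so which members have a match depends on the letters chosen. A match is a description of these letters and does not show binding.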

How the data were processed

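The authors deposited, for each array, the background-subtracted intensity of every spot from Agilent Feature Extraction 10.7.3.1, not normalized between arrays. A second deposited table holds log2 values, which across 39242 probes correlated at 0.9999 or more with the intensities after a 75 percentile shift, log2 and centring on each probe's median.

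Values used here were log2 intensities minus the array's own 75th percentile, without control and outlier spots and averaged per probe. No spot was saturated. Of 39429 probes, 26055 were named by RefSeq accession (GRCm38.p6). Tests covered the 23518 probes that all arrays of 1 or both groups had well above background, and were run with lmFit and eBayes of limma 3.58.1 (R 4.3.3), checked on simulated data, with Benjamini-Hochberg adjustment over all of them. A gene passed through at least 1 probe, and the brightest probe stood for it. Permutation tests were exact and two-sided.

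Deviations from group means correlated at 0.38 to 0.58 between samples of one number and at -0.44 to 0.25 between others, so the numbers pair the samples, a pairing inferred from the values. The groups shared 0 array positions, so position and siRNA cannot be told apart.

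Named genes were all members, *L3mbtl2*, *Ddx4*, *E2f6*, up to 3 passing genes per pathway list and direction (for lists without one, the 2 brightest), and the 3 genes most like each member that passed. Pathway genes that were too dim or whose probes disagreed are named as well. Marker lists did not follow this rule. There, passing genes are not all named, and others are named for their brightness, their change or their part in a sum. Members and lists were chosen with earlier results of these data known. Alternatives were normexp (offset 50, on median spot intensities), quantile normalization, the deposited log2 table, other filters on dim probes, an intensity trend, a block for slide or replicate number, one-way ANOVA, a 1.5-fold threshold, single slides and leaving out each sample.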

Additional observations from a re-analysis of the deposited data

Results flagged for a closer look

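Dixon's ratio singled out 1 sample in 2 of 32 sets of 4 samples, over the probes of the family members, *E2f6*, *L3mbtl2* and *Ddx4*, and about 1.6 such sets come by chance. For *E2f7* in *L3mbtl2*-KD ESCs, replicate 1 had a level of -0.077 and the remaining replicates a mean of -0.016 (ratio 0.891), in a group whose values lay close together. For *Rb1* in *L3mbtl2*-KD ESCs, replicate 2 had a level of -0.43 and the remaining replicates a mean of -0.62 (ratio 0.859), and replicate 2 was also the highest control sample.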

How the results depend on the processing

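*E2f7* passed an adjusted p of 0.05 under every alternative run except within single slides (-0.41 and -0.36), where fewer arrays were fitted, and *E2f2* did not pass within slides (-0.43 and -0.43), without the filter on dim probes (-0.43), where more probes were tested, or in 4 of the 8 fits that lacked 1 sample (adjusted p = 0.0514, 0.0748 and 0.0624 without *L3mbtl2*-KD replicates 1, 3 and 4, and 0.0691 without control replicate 3). *E2f1* reversed with quantile normalization (-0.0088) and without control replicate 2 (-0.016) or 4 (-0.0045), and *E2f5* without control replicate 1 (-0.0096), all near 0; the cause was not tested. Over fits that each lacked 1 sample, the change was -0.016 to 0.095 for *E2f1*, -0.49 to -0.34 for *E2f2*, 0.22 to 0.54 for *E2f3*, -0.0096 to 0.25 for *E2f5* and -0.49 to -0.29 for *Rbl2*, and 0 to 1 members were higher and 1 to 3 lower. For the brighter *Rbl1* probe the change then ran from 0.090, without control replicate 4, to 0.17. Within the slides this probe gave 0.087 and 0.19.

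With the replicate block, *E2f3* (0.35), *E2f4* (0.25), *E2f8* (-0.40) and *Rb1* (0.14) passed, and the block changed no other call among the members. It gave 3 members higher, 3261 genes higher and 3547 lower at any size, and, among the lists, 2 DP partners lower, 1 MuvB gene higher and 2 lower, 3 G1 cyclin and CDK genes lower, 2 CDK inhibitor genes higher and 3 lower, 5 G1/S genes higher and 7 lower, and 5 G2/M genes higher and 4 lower. One-way ANOVA is the test named in the figure legends, and with Benjamini-Hochberg adjustment it gave 0 members higher and *E2f2* and *E2f7* lower. Without adjustment it also passed *E2f3* (through its dimmer probe), *E2f4* (0.25), *E2f8* (-0.40) and *Rbl2* (-0.37). It then gave 2 members higher and 4 lower, 2477 genes higher and 2654 lower, 3 MuvB genes higher (1 after adjustment), 3 G1 cyclin and CDK genes lower, 2 CDK inhibitor genes higher, 3 G1/S genes higher and 6 lower, and 5 G2/M genes higher and 2 lower.

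Normexp, quantile normalization and the slide as a block each gave 1 member higher (*E2f3*, through its dimmer probe). Normexp gave 194 genes more than 2-fold higher and 159 lower, against 340 and 438, and moved the share of higher genes among them from 43.7% to 55.0%. After quantile normalization this share was 52.3%, with 394 genes higher and 359 lower. Normexp and quantile normalization gave 4 G1/S genes lower, as did an intensity trend, which also gave 2 CDK inhibitor genes higher. The slide as a block gave 1 MuvB gene higher, 2 G1 cyclin and CDK genes lower, 1 CDK inhibitor gene higher and 2 G2/M genes lower. Without the filter on dim probes, with more probes tested, 1 member was lower, 819 genes were higher and 1047 lower, and 0 G1 cyclin and CDK genes were lower, 0 G1/S genes lower and 1 G2/M gene higher. Restricted to probes bright on all 8 arrays, the fit gave 249 genes more than 2-fold higher and 290 lower. A 1.5-fold threshold gave 700 higher and 1014 lower.

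Fits that each lacked 1 sample gave 785 to 1398 genes higher and 997 to 1581 lower at any size, with 0 to 1 MuvB genes higher, 0 to 2 G1 cyclin and CDK genes lower, 0 to 1 CDK inhibitor genes higher, 1 to 2 G1/S genes higher and 0 to 2 lower, and 0 to 2 G2/M genes higher and 0 to 1 lower. List medians then ran from 0.096 to 0.16 for MuvB genes, -0.26 to -0.097 for G1 cyclins and CDKs, -0.37 to 0.12 for CDK inhibitors, -0.061 to 0.055 for G1/S genes and 0.013 to 0.10 for G2/M genes. Signal over background left the G1 genes *Ccne2* and *Cdk6* untested, and no family member.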
